A study of Homo sapiens with 4 samples.

Results

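Messenger RNA was measured for the MAP kinase phosphatases, the dual-specificity phosphatases (DUSP) that switch off MAP kinases, in HEK293 cells, a line of human embryonic kidney origin. The 9 members DUSP1, DUSP2, DUSP4, DUSP5, DUSP6, DUSP7, DUSP8, DUSP10 and DUSP16 were taken by gene name, a rule that reads no measured value. The set was, however, chosen with earlier results of these data known. The platform annotation named probes for 8 of them, 9 probes in all, among 18639 genes, and DUSP8 had no probe named for it here. Of the cells, 1 line carried a transgene for LGP2-4KR, a form of LGP2 that the labels do not define, and the other a transgene for LGP2, which binds viral double-stranded RNA together with its relatives RIG-I and MDA5. The 4 groups were 4KR cells transfected with short poly I:C (100 ng/ml, in a lipid reagent) and taken at 12 h, 4KR cells without stimulation (0 h), LGP2 cells treated alike and taken at 12 h, and LGP2 cells without stimulation. Short poly I:C is a synthetic double-stranded RNA that imitates viral RNA. Each group had 1 array, so no ratio between single arrays has an error or a test. No group was transfected without poly I:C or kept for 12 h without stimulation, so poly I:C, transfection and time in culture cannot be told apart. The labels do not say what drives the transgenes or whether a line is a clone.

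MAP kinases (ERK, JNK and p38) are activated by phosphorylation of a threonine and a tyrosine in their activation loop, and MAP kinase phosphatases remove both phosphates. Several of these phosphatases are themselves transcribed when MAP kinases are active, which closes a negative feedback loop. They differ in where they act and on which kinase. DUSP1, DUSP2, DUSP4 and DUSP5 are inducible nuclear enzymes, DUSP6 and DUSP7 are cytoplasmic and prefer ERK, and DUSP8, DUSP10 and DUSP16 prefer JNK and p38.

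All 8 measured members were detected on all 4 arrays, that is, with a signal over 2 SD above the average blank spot. The stimulation showed in 5 of 6 check genes, which limma called higher, and IFIT1, an interferon-induced gene, had the largest mean log2 ratio, 6.83. IFNB1, the gene of interferon beta, was higher at 12 h by a log2 ratio of 4.05 in 4KR cells and 4.06 in LGP2 cells, while DHX58, the check gene without a call, had a mean of 0.20. DHX58, the gene of LGP2, had deposited intensities of 42.6 and 22.8 in 4KR cells at 12 h and 0 h and of 51.0 and 41.4 in LGP2 cells, and whether its probe lies in the transgene is not known here. Of the HEK293 markers, 6 of the 6 with a probe were detected on all arrays, and so were 3 of 5 blood cell markers, 1 of 5 fibroblast markers and 4 of 4 keratinocyte markers with a probe. PTPRC of the blood cell list and COL1A2 of the fibroblast list were detected on none, and the remaining markers on some arrays. Log2 ratios below come from background-corrected, quantile-normalized signals with an offset of 50, which shrinks the ratios of dim probes. Deposited intensities are the authors' scaled values, in which the median of each array is 25.

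In the main processing DUSP1 was about 2-fold higher at 12 h in both lines, and DUSP16 was higher by a smaller ratio. The other 6 measured members lay close to the median of all genes there. No alternative processing gave a lower ratio for DUSP1, whose log2 ratios ran up to 1.63 in 4KR cells and 1.38 in LGP2 cells. DUSP1 was the member at least 2-fold higher in 4KR cells (1 of 8, against 0.411% of all genes tested) and also in LGP2 cells (1 of 8, against 0.444%). At 1.5-fold higher the count was likewise 1 of 8, against 1.59% of genes in 4KR cells and 1.9% in LGP2 cells. Lower by 1.5-fold were 0 of 8, against 0.429% and 0.51%. In the deposited table DUSP16 passed 1.5-fold too, where 13.1% of genes in 4KR cells and 20.6% in LGP2 cells did. The median log2 ratio of the 8 members was 0.03 in each line, against -0.01 for all genes. An additive limma fit over line and time, in which the lines stand in for replicates, gave an adjusted p under 0.05 for 2 of 8 members, both higher at 12 h. The same fit called 10.2% of all genes higher and 8.81% lower, so such a call is frequent on these arrays. The only residual of a gene is the difference between the lines, with 1 degree of freedom. Limma combines it with a variance trend over all genes, worth 4.49 degrees of freedom in the main processing. The SEs and p-values below thus rest largely on other genes. Anything shared by the 2 arrays of a time enters the estimate.

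**Figure D1:**
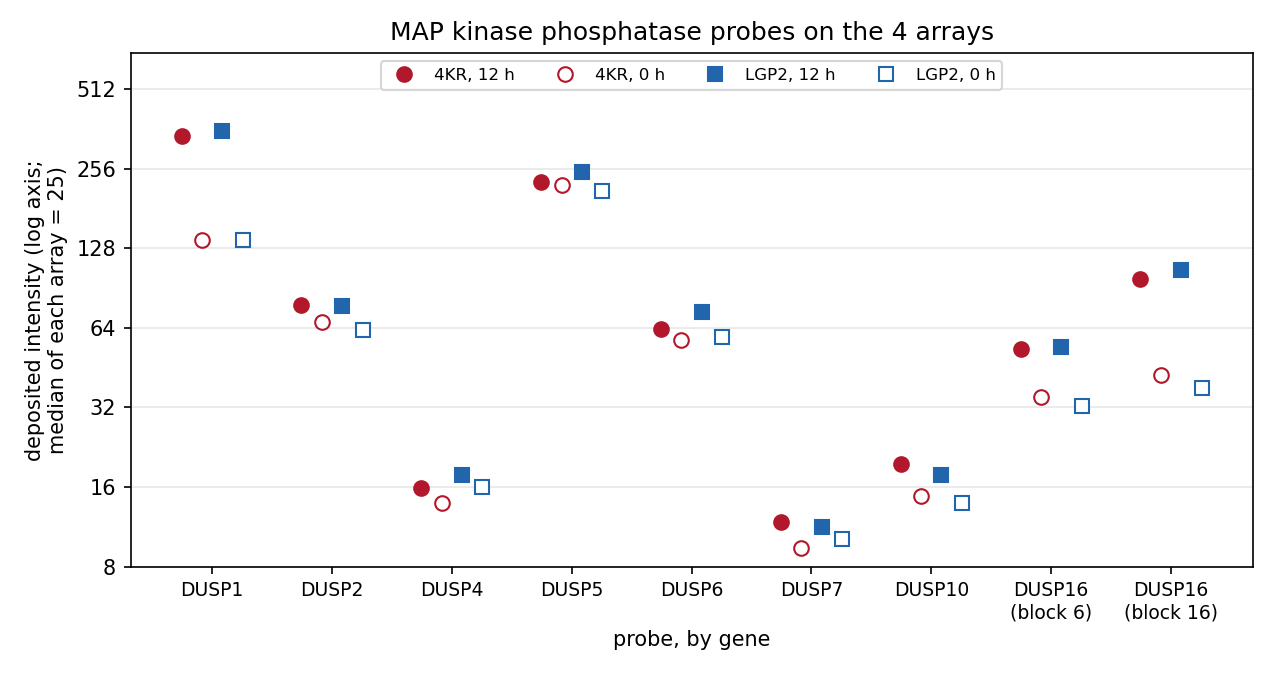
Deposited intensity (log axis, median of each array 25) of the 9 member probes on the 4 arrays, 1 point per array, with DUSP16 shown by its 2 probes. The 12 h points of DUSP1 (339.8 and 354) stand far above the 0 h points (137 in each line), those of both DUSP16 probes stand apart too, and the other probes lie closer together.

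DUSP1 is the product of an immediate early gene and acts in the nucleus on p38, JNK and ERK. Its deposited intensity was 339.8 in 4KR cells at 12 h and 137 in 4KR cells at 0 h. In LGP2 cells it was 354 at 12 h and 137 at 0 h. The stimulated arrays were thus high and the unstimulated arrays low, with almost the same values in both lines. The scanner signal above the blank spots was 820 units against 229 in 4KR cells and 698 against 235 in LGP2 cells. The normalized log2 ratio was 1.09 in 4KR cells and 1.03 in LGP2 cells, a fold of 2.12 and 2.04. Of 16564 genes tested in 4KR cells 58 had a larger ratio, and of 16675 in LGP2 cells 70 did. The mean of both lines was 1.06 ± 0.07 (limma moderated SE, n = 2 lines), with a limma adjusted p of 0.00173. That adjusted p ran from 3.62e-36 to 0.104 over the alternatives. The highest came from plain subtraction of the blank level, where limma called 5 of 17085 genes in all and the mean ratio was 1.19. Neither end of the range measures a spread between replicates of a group, since each group had 1 array. In bulk RNA, more transcript per cell and more cells with the transcript cannot be told apart.

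Across the 4 arrays, the genes whose levels followed that of DUSP1 most closely were RHEBL1, a Ras-family GTPase, and the TRIM ubiquitin ligases TRIM26 and TRIM21. Likeness was the Euclidean distance between log2 levels, each less its own mean over the 4 arrays, among 15738 genes detected on all of them. The distances were 0.05, 0.05 and 0.06. This measure picks genes whose ratios are close to those of DUSP1, so the ratios below follow from the choice. Shared regulation was not tested. RHEBL1 had log2 ratios of 1.12 in 4KR cells and 1.07 in LGP2 cells, TRIM26 of 1.04 and 1.07, and TRIM21 of 1.04 and 0.97.

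Promoter windows of 300 bases, 250 before and 50 after the annotated start, were taken from RefSeq (GRCh38.p14) for 7 of the 9 members, and no window was given for DUSP4 and DUSP5. They are shown for DUSP1 and DUSP16, the members with the largest ratios, and for DUSP6, a member near 0, so that the windows can be read beside the responses. Capitals mark matches to TGACGTCA, the cAMP response element to which CREB and ATF proteins bind, or to its shorter core TGACG, on either strand. The 3 windows are chr5:172771146-172771445 for DUSP1, chr12:12562814-12563113 for DUSP16 and chr12:89352452-89352751 for DUSP6, all read 5′ to 3′ on the minus strand, that of the genes.
DUSP1: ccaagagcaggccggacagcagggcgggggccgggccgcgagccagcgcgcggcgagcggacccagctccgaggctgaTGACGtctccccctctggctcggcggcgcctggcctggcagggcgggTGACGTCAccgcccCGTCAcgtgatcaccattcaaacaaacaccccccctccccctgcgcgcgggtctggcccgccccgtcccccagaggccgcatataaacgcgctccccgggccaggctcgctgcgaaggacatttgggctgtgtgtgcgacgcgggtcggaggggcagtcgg
DUSP16: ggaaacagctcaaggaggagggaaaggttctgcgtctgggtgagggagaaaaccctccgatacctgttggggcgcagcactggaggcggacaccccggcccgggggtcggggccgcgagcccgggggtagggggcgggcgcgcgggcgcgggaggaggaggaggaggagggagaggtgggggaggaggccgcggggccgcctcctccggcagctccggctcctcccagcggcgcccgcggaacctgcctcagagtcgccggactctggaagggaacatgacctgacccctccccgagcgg
DUSP6: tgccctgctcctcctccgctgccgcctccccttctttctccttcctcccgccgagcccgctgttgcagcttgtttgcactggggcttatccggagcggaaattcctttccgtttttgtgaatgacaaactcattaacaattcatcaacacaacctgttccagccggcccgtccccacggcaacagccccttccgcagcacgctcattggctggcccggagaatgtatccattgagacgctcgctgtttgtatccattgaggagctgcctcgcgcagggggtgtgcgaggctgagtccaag

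The DUSP1 window held 1 match to TGACGTCA, at position -125 from the start, and 4 matches to the core TGACG, of which 2 lie within that element. Among 35116 windows of the same length, 1.85% held TGACGTCA and 24.6% held TGACG. DUSP8 also matched, with 2 copies of TGACGTCA, but its level was not measured. Neither the DUSP16 nor the DUSP6 window matched any motif searched. The other motifs were the AP-1 sites TGACTCA and TGAGTCA (4.95% of windows), the EGR sites GCGGGGGCG and GCGTGGGCG (5.77%), the CArG box (1.29%) and the NF-kB site (11.3%). Elsewhere DUSP2 had 1 EGR match, DUSP7 had 1 NF-kB match, and of the 2 DUSP10 windows 1 held TGACG. A match describes these letters and was not tested for binding.

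DUSP16 encodes a phosphatase that prefers JNK and p38 and shuttles between nucleus and cytoplasm. Both of its probes were higher at 12 h in both lines, by different ratios. The probe in block 16 of the array had deposited intensities of 98.2 and 42.4 in 4KR cells at 12 h and 0 h, and of 106 and 37.97 in LGP2 cells. Its log2 ratio was 0.74 in 4KR cells and 0.84 in LGP2 cells. The probe in block 6 had intensities of 53.0 and 34.9 in 4KR cells and of 54.0 and 32.4 in LGP2 cells. The log2 ratio of that probe was 0.26 in 4KR cells and 0.28 in LGP2 cells. For both probes, the stimulated values lay above both unstimulated ones. Averaged over the probes, the log2 ratio of DUSP16 was 0.50 in 4KR cells and 0.56 in LGP2 cells, under 1.5-fold. In the deposited table the averages were 0.91 and 1.11, so that DUSP16 passed 2-fold in LGP2 cells there. With both probes averaged, no alternative gave a lower ratio than the main processing. The highest were 0.96 in 4KR cells and 1.11 in LGP2 cells, so being under 1.5-fold depended on the processing. The mean of both lines was 0.53 ± 0.05 (limma moderated SE, n = 2 lines), with a limma adjusted p of 0.00533. Over the alternatives it ranged from 9.88e-30 to 0.104, with the limit given for DUSP1. The 0.104 again came from plain subtraction. Which transcripts of DUSP16 each probe reads is not known here.

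**Figure D2:**
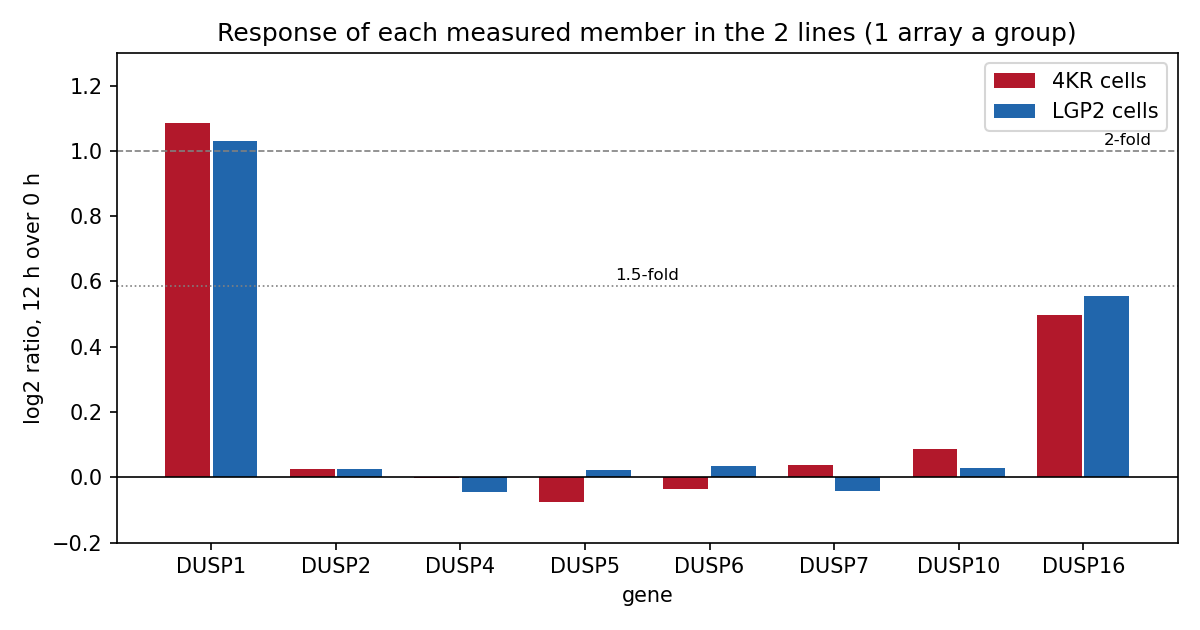
Log2 ratio of 12 h over 0 h of the 8 measured members in 4KR cells (red) and LGP2 cells (blue), from 1 array a group, with no error bars. DUSP1 passes the 2-fold line in both lines, DUSP16 lies just under 1.5-fold, and the other bars lie between -0.08 and 0.09.

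The other inducible nuclear phosphatases had log2 ratios near 0. DUSP2, best known from activated lymphocytes, had deposited intensities of 77.8 and 67.1 in 4KR cells at 12 h and 0 h, and of 77.3 and 62.7 in LGP2 cells. Its log2 ratios were 0.02 in 4KR cells and 0.03 in LGP2 cells. DUSP4, a close relative of DUSP1, had intensities of 15.8 and 13.9 in 4KR cells and of 17.7 and 15.98 in LGP2 cells. Its log2 ratios were -0.0011 and -0.05, and the intensity in 4KR cells at 12 h lay below that in LGP2 cells at 0 h. DUSP5, which is selective for ERK, had intensities of 227 and 222 in 4KR cells and of 248 and 211 in LGP2 cells. Its log2 ratios were -0.08 and 0.02. The limma adjusted p was 0.769 for DUSP2, 0.67 for DUSP4 and 0.82 for DUSP5.

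Among the members, the cytoplasmic ERK phosphatases were also near 0. DUSP9, an ERK phosphatase related to DUSP6 that is not a member here, had a mean log2 ratio of -0.30 and is given below. DUSP6, a target gene of ERK signalling that is often read as its gauge, had deposited intensities of 63.2 and 57.5 in 4KR cells at 12 h and 0 h, and of 73.7 and 59.2 in LGP2 cells. Its log2 ratios were -0.04 in 4KR cells and 0.03 in LGP2 cells. DUSP7, its relative, had intensities of 11.8 and 9.40 in 4KR cells and of 11.3 and 10.2 in LGP2 cells. Its log2 ratios were 0.04 and -0.04. The limma adjusted p was 0.984 for DUSP6 and 0.965 for DUSP7. The DUSP7 probe was dim, at 15.6 to 28.5 scanner units above the blank spots, whose SD was 1.05 to 1.28, the lowest signal among the members.

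DUSP10, which prefers p38 and JNK, had deposited intensities of 19.6 and 14.8 in 4KR cells at 12 h and 0 h, and of 17.8 and 13.9 in LGP2 cells. Both stimulated values were above both unstimulated ones, but the normalized log2 ratios were 0.09 in 4KR cells and 0.03 in LGP2 cells. In the deposited table the ratios were 0.41 and 0.36, against 0.15 and 0.25 for the median gene. The limma adjusted p of DUSP10 was 0.308, and 0.0294 without normalization between arrays, where its mean ratio was 0.27, or 0.08 above the median of all genes.

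How near 0 DUSP2, DUSP5 and DUSP6 lay depended on the scaling between arrays. With arrays scaled to a common median in place of quantile normalization, their mean ratios of both lines were 0.26, 0.25 and 0.22 above the median of all genes, against 0.04, -0.02 and 0.01 with quantile normalization. The limma adjusted p under median scaling was 0.00302 for DUSP2, 0.0515 for DUSP5 and 0.0109 for DUSP6. DUSP1 and DUSP16 were above the median of all genes by 1.07 to 1.32 and by 0.54 to 0.81 in every alternative tried. The mean ratios of DUSP4 and DUSP7 stayed within 0.05 of that median in the same alternatives, but the single lines ranged wider. Relative to that median, DUSP7 ran up to 0.18 in 4KR cells and down to -0.13 in LGP2 cells. DUSP4 ran down to -0.10 in LGP2 cells.

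**Figure D3:**
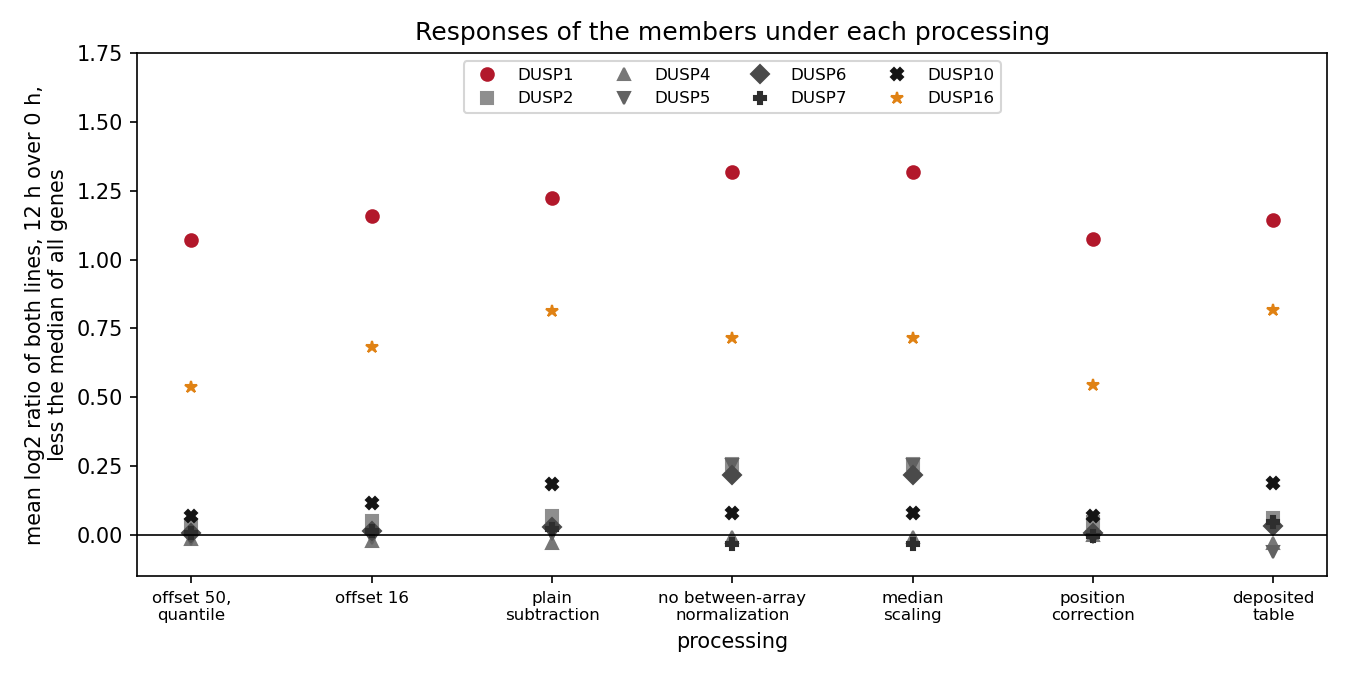
Mean log2 ratio of both lines, 12 h over 0 h, less the median of all genes, for the 8 measured members under 7 ways of processing. DUSP1 (red circles) and DUSP16 (orange stars) lie above the other members throughout, and DUSP2, DUSP5 and DUSP6 rise to between 0.22 and 0.26 without normalization between arrays and with median scaling.

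Between the lines, no member differed by 1.5-fold. When the response of LGP2 cells was taken from that of 4KR cells, 0 of 8 members passed 1.5-fold in either direction, against 0.883% of genes. The differences ran from -0.10 for DUSP5 to 0.08 for DUSP7, with 0.05 for DUSP1 and -0.06 for DUSP16. Of 15738 genes, 53.7% had a larger absolute difference than DUSP1 and 31.2% a larger one than DUSP5. The DUSP1 difference was -0.06 in the deposited table and 0.25 without normalization between arrays, or 0.05 and 0.12 relative to the median of all genes. At 12 h, 4KR over LGP2 cells, 0 of 8 members passed 1.5-fold, against 0.0939% of genes, and the log2 ratios ran from -0.09 for DUSP6 to 0.08 for DUSP10. At 0 h, 0 of 8 passed, against 0.471%, and the ratios ran from -0.08 for DUSP4 to 0.10 for DUSP5. With 1 array a group these values do not show that the lines are alike. None of the member probes lies in blocks 20, 21 or 24 of the array, where the median difference of the responses was -0.08, -0.09 and 0.15, and in the members' own blocks it ran from -0.02 to 0.0055.

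Among the genes around the MAP kinase phosphatases, the immediate early AP-1 and EGR genes had the most calls. That list and the others were chosen with earlier results of these data known. By limma, 11 of 25 detected immediate early genes had an adjusted p under 0.05 and a higher level at 12 h, 0 a lower one, against 10.2% of all genes higher and 8.81% lower, and the median of the list was 0.13 against -0.01 for all genes. EGR1, a zinc-finger transcription factor, had a mean log2 ratio of 2.43 ± 0.05 (limma moderated SE, n = 2 lines). ATF3, a stress-induced factor of the ATF family, was at 2.36 ± 0.11. JUN, an AP-1 subunit and the substrate of JNK, was at 1.63 ± 0.13. EGR1 had deposited intensities of 171 and 7.30 in 4KR cells at 12 h and 0 h, and of 160.5 and 4.91 in LGP2 cells. IER3 and FOS, named after their values were seen, were at 1.56 and 0.74. FOSB, JUNB and FOSL1, of the same list and also named afterwards, were at 0.0004, 0.12 and -0.18, without a call.

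The lists of feedback inhibitors and other phosphatases also hold genes that do not act on MAP kinases. Their counts of calls stand against 10.2% of all genes called higher and 8.81% lower. With lists this short nothing is read from shares near those. Of 11 detected Sprouty and other ERK feedback inhibitors, 1 was called higher by limma and 0 lower, with a median of 0.0048. It was SPRY1, which dampens receptor tyrosine kinase signalling, at 0.35 ± 0.04, with intensities of 44.2 and 25.1 in 4KR cells at 12 h and 0 h and of 46.5 and 24.9 in LGP2 cells. Of 18 other dual-specificity phosphatases 3 were called higher and 1 lower, with a median of -0.04. DUSP12 was at 0.41 ± 0.07. Named after their values were seen, DUSP14 was at 0.36, SSH1 at 0.20 and DUSP9, an ERK phosphatase related to DUSP6, at -0.30. Over the alternatives the limma adjusted p rose to 0.104 for DUSP12, 0.141 for DUSP14, 0.229 for SSH1 and 0.597 for DUSP9. The SSH1 probe was dim, with intensities of 8.1 and 2.8 in 4KR cells at 12 h and 0 h and of 9.4 and 2.8 in LGP2 cells. Of 9 phosphatases listed under other classes, 2 were called higher and 0 lower, with a median of 0.04. The 2 were PPM1D, a p53-induced phosphatase of p38, at 0.51 ± 0.06 and, named afterwards, PPP2CA at 0.38.

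For the kinases of the cascade and the ETS-type genes the same shares hold, 10.2% of all genes called higher and 8.81% lower. Of 8 detected MAP kinases 0 were called higher and 3 lower, and the median was -0.07. These were MAPK3, which is ERK1, at -0.23 ± 0.04, and, named afterwards, MAPK13 at -0.22 and MAPK7 at -0.11. Over the alternatives the limma adjusted p rose to 0.563 for MAPK3, 0.581 for MAPK13 and 0.784 for MAPK7. The MAPK7 probe was dim, with deposited intensities of 5.0 to 9.3. Of 5 MAP2 kinases 1 was called lower and 0 higher (median -0.06), MAP2K6, an activator of p38, at -0.40 ± 0.04. Of 11 MAP kinase-activated kinases 2 were called lower and 0 higher (median -0.01), MAPKAPK3 at -0.26 ± 0.05 and, named afterwards, MKNK1 at -0.26. Of 19 MAP3 kinases 2 were called higher and 0 lower (median 0.02), MAP3K8, which drives ERK downstream of NF-kB signalling, at 0.55 ± 0.04 and, named afterwards, MAP3K14 at 0.14. Of 10 ETS-type ERK output genes 1 was called higher and 0 lower (median 0.0077), ELK4 at 0.12, named afterwards. The ELK4 probe was dim, with deposited intensities of 4.3 to 10.3. ETS2 had the largest ratio of that list, 0.17 in 4KR cells and 0.56 in LGP2 cells, with a limma adjusted p of 0.0557. Over the alternatives the limma adjusted p rose to 0.52 for MAP2K6, 0.524 for MAPKAPK3, 0.884 for MKNK1 and 0.906 for ELK4. For MAP3K14 it rose to 0.194 and for MAP3K8 to 0.104.

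**Figure D4:**
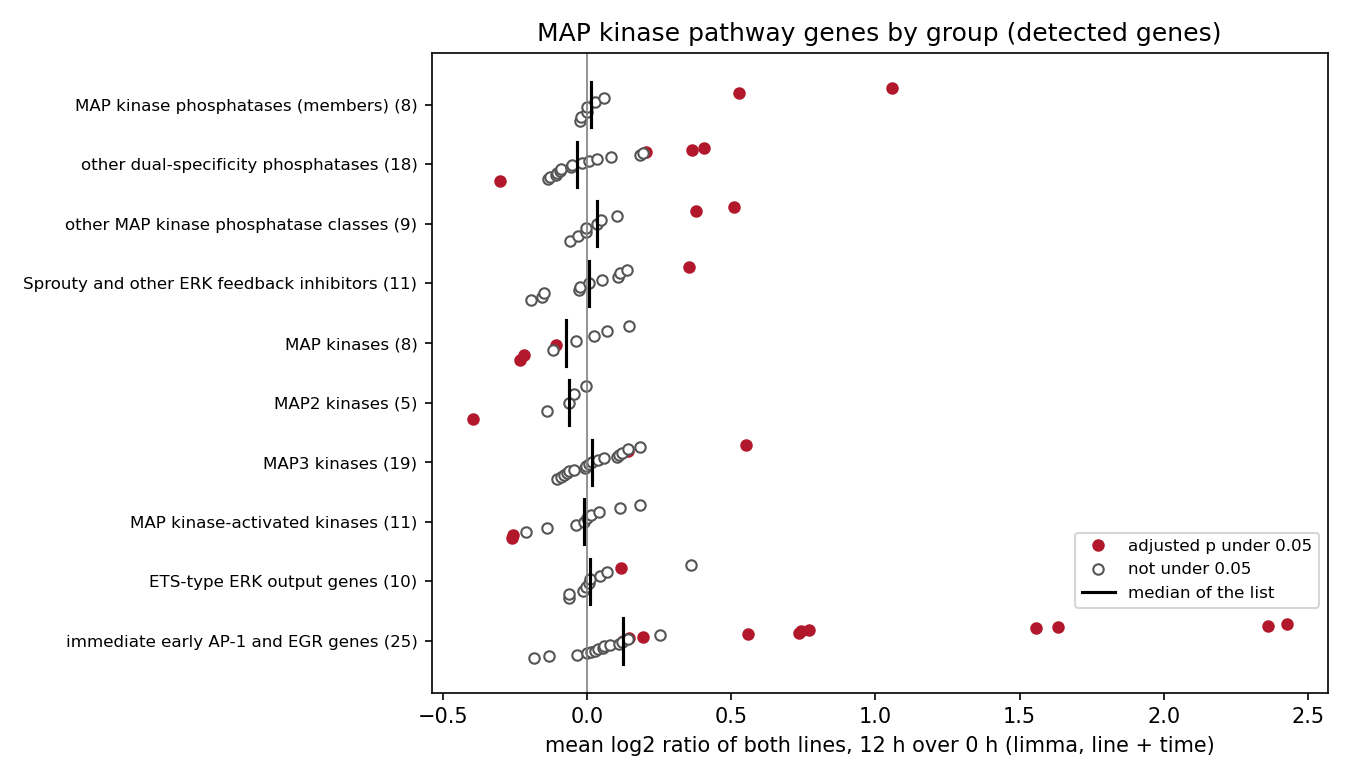
Mean log2 ratio of both lines, 12 h over 0 h, of the detected genes in each list, with filled red points for a limma adjusted p under 0.05, open points for the rest, and a bar at the list's median. The members' list has 2 filled points, at 1.06 and 0.53, and the immediate early list extends to 2.43.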

How the data were processed

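RNA from 4 groups of transgenic HEK293 cells, 1 array each, was hybridised in a single colour (Cy5), per the labels' protocols. Per the file headers, the scanner tables deposited by the authors hold the median intensity of each spot, read at 3 gains and not normalized. The authors' series table holds intensities that equal the spot median less about the mean blank spot, scaled to a median of 25 per array (largest residual 0.0530). The scanner's background column followed the spot signal (correlation of logarithms 0.991 to 0.997), so the mean blank spot served as background. The signals were then corrected by normexp (limma 3.58.1, R 4.3.3, offset 50), quantile-normalized and put on the log2 scale. Probes of a gene were averaged, and 1 rejected probe was left out. Of 24460 gene probes, 21707 had 1 gene symbol in the platform annotation, 0 had several and 2753 stay unnamed here. Signals above the mean plus 2 SD of 384 blank spots counted as detected, and a gene was counted past a fold if detected on the brighter array (on all 4 for the difference of the responses). The additive fit used lmFit and eBayes with a trend, adjusted by Benjamini-Hochberg over 17085 genes, and both functions were tested on simulated data. The number of arrays limits the precision.

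The members and the 18 lists were chosen with earlier results of these data known. Named genes were the members, the stimulation check, up to 3 genes per list past 2-fold in either line with the largest mean ratio (otherwise the 1 largest), and the 3 genes closest to a member past 2-fold. Alternatives were an offset of 16, plain subtraction with a floor of 2 SD of the blank spots, no or median scaling between arrays, position correction by array block, the deposited table, detection at 3 SD, a fold of 1.5 and no variance trend.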

Additional observations from a re-analysis of the deposited data

Results flagged for a closer look

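In 3 members the response had opposite signs in the 2 lines, each value resting on 1 array a group, and the difference was not tested. The share of all genes with opposite signs was not counted. Of 15738 genes, 31.2%, 43.8% and 38.8% had a larger absolute difference than DUSP5, DUSP6 and DUSP7, so differences of this size are frequent on these arrays. For DUSP5 the log2 ratio was -0.08 in 4KR cells and 0.02 in LGP2 cells, a difference of -0.10. For DUSP6 it was -0.04 and 0.03, a difference of -0.071. For DUSP7 it was 0.04 and -0.04, a difference of 0.080. In the deposited table all 6 of these ratios were above 0, at 0.03 and 0.23 for DUSP5, 0.14 and 0.32 for DUSP6, and 0.33 and 0.15 for DUSP7, in 4KR and LGP2 cells.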

How the results depend on the processing

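DUSP1 and DUSP16 kept a higher level at 12 h in both lines under every alternative tried, with log2 ratios of 1.09 to 1.63 (4KR) and 1.03 to 1.38 (LGP2) for DUSP1 and of 0.50 to 0.96 and 0.56 to 1.11 for DUSP16, each probe alone apart. The scaling between arrays moved the other results. With the deposited values, 2 of 8 members passed 2-fold in LGP2 cells, where 6.14% of all genes were at least 2-fold higher, against 0.444% in the main processing. The members' median in 4KR cells was 0.48 without normalization, 0.19 with median scaling and 0.27 in the deposited table, and in LGP2 cells 0.34, 0.19 and 0.31. The median for all genes was 0.27, -0.0088 and 0.15 in 4KR cells and 0.12, -0.02 and 0.25 in LGP2 cells. The median difference of the responses was 0.17 without normalization and -0.074 in the deposited table, and that of 4KR over LGP2 cells at 12 h was 0.16 and -0.065. Limma called 6 members without normalization, 4 with median scaling and 0 with plain subtraction. It called 5 genes in all with plain subtraction, against 3243 in the main processing and up to 8595 elsewhere. Without normalization, 15.8% of all genes in 4KR cells and 6.99% in LGP2 cells were at least 1.5-fold higher. Nothing is read about the members from these counts. The mean ratios of DUSP4, DUSP5, DUSP6 and DUSP7, all slightly below 0 in the main processing, turned positive without normalization (0.18, 0.44, 0.40 and 0.15) and in the deposited table (0.17, 0.13, 0.23 and 0.24), and those of DUSP5 (0.22) and DUSP6 (0.18) with median scaling. The cause was not tested. The 2 DUSP16 probes were taken alone only after the data had been seen. The additive fit already pairs the 12 h and 0 h arrays of each line, and the labels give no replicate numbers for a further block. With 1 array a group, no array could be left out within a group.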
